A study of Mus musculus with 346 samples.

Results

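The mitochondrial respiratory chain was examined in single cells of the mouse mammary gland through its own genes, of which 113 were listed among the 27179 genes counted in each cell. These were the 13 protein-coding genes of the mitochondrial genome and 100 nuclear genes, taken by symbol as those that start with Nduf, Uqcr, Atp5 or Cox4 to Cox8, together with Sdha, Sdhb, Sdhc and Sdhd. The nuclear genes comprised 87 structural subunits, 8 Ndufaf genes for complex I assembly and 5 pseudogenes. All cells came from FVB/NJ mice, with no treatment and no engineered allele, at 3 stages. Pre-pubertal glands were from 2-week-old mice (144 cells), pubertal glands from mice of 4.7 to 4.9 weeks (136 cells) and adult glands from 10-week-old mice (66 cells). Cells of several mice were pooled, sorted as total epithelium and captured one by one on the Fluidigm C1, a microfluidic device, and polyA+ RNA was converted to full-length cDNA. The labels name no mouse, sort or chip for a cell, so each stage counted as 1 sample, no test was made, and intervals cover counting error only. After the study's coverage filter 279 of these cells remained, of which 116 were pre-pubertal, 119 pubertal and 44 adult. The paper lists more pubertal and adult cells after its filter than were labelled here.

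The respiratory chain sits in the inner mitochondrial membrane. Complexes I and II pass electrons from NADH and succinate to ubiquinone, complex III passes them on to cytochrome c, and complex IV hands them to oxygen. Complexes I, III and IV pump protons, and complex V, the ATP synthase, lets the protons back to make ATP. Complex II is encoded by nuclear genes alone, whereas the other complexes combine subunits of both genomes, so that their assembly draws on transcripts made in the nucleus and in the mitochondrion. In the mammary gland, the basal layer is marked by Krt14 and the luminal cells, from which milk is later secreted, by Krt8 and Krt18.

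Nuclear respiratory chain genes have long been known to carry sites for the nuclear respiratory factor NRF1, for the ETS factor GABP and for YY1 near their start sites, and the letters of such sites were looked up in RefSeq promoter windows (GRCm38.p6), each from 250 bases before to 50 bases after a start site. Of the 100 nuclear genes, 77 had a window, 82 windows in all. The NRF1 letters, those in capitals for Cox6a1, were in 8.54% of these windows (7 windows), against 0.971% of all windows and 2.04% of the windows of genes at 10 reads per 1000000 (CPM) or more at any stage. The letters of YY1 were in 7.32% (6 windows), against 0.852% and 2.10%. The ETS letters, those in capitals for Uqcrh, were in 6.10% (5 windows), against 3.89% and 8.00%, so they were no more frequent than in genes at 10 CPM or more. The 77 genes were not limited to that level. Both strands were searched. A subunit of each of complexes I, III and IV and an assembly factor are shown, 5′ to 3′ on the strand of the gene with the matched letters in capitals. They are Cox6a1 (chr5:115349086-115349145, minus strand), Ndufa11 (chr17:56717677-56717736, plus strand) and Ndufaf4 (chr4:24897945-24898004, plus strand) for the NRF1 letters, and Uqcrh (chr4:116075071-116075106, minus strand) for the ETS letters. All lie upstream of the start site, and a match describes the letters only.
Cox6a1: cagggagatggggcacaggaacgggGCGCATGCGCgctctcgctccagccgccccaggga
Ndufa11: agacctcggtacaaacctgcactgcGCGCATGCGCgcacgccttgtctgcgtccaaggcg
Ndufaf4: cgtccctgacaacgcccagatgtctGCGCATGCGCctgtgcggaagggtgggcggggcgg
Uqcrh: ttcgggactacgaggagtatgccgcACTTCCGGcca

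The median kept cell held 312068 reads before puberty, 669059 at puberty and 395794 in adult cells, and kept cells ran from 128129 to 1317107 reads. The labelled tissue was checked against its markers. In pre-pubertal cells the 11 epithelial markers (Epcam, Cdh1, Krt8, Krt18 and others) summed to 143 CPM, against 5503 CPM at puberty and 5002 CPM in adult cells, and the median pre-pubertal cell had reads for 0 of them once each cell was thinned to 100000 reads. The 12 Schwann cell markers summed to 10360 CPM before puberty, with 9 detected in the median cell, against 420 CPM at puberty, where Ngfr was at 0, and 146.7 CPM in adult cells, where Gfra3, Kcna1 and Fabp7 were at 0. The 7 fibroblast markers summed to 7087, 1578 and 1119 CPM. The part of these markers in the stage differences was not tested, and values for the pre-pubertal cells that did carry keratins are given with the results.

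Mitochondrial transcripts took a smaller share of the reads before puberty than at either later stage. The 13 mitochondrial genes held 3.23% of all reads before puberty (95% exact binomial interval 3.23 to 3.24), 9.95% at puberty (9.94 to 9.96) and 10.9% in adult cells. Over single cells the share ran from 0.901% through a median of 2.56% to 11.7% before puberty, from 0.663% through 9.01% to 45.6% at puberty, and from 1.42% through 8.55% to 35.3% in adult cells. The pre-pubertal cells were low almost throughout. Of 116 pre-pubertal cells 3 lay above the pubertal median, and of 119 pubertal cells 3 lay below the pre-pubertal median, whereas 62 of 119 pubertal cells lay above the adult median. The log2 ratio of the summed shares was -1.62 for pre-pubertal over pubertal cells, -1.75 for pre-pubertal over adult cells and -0.13 for pubertal over adult cells.

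The nuclear genes were lower before puberty as well, by a smaller step. Together they held 10587 CPM before puberty (95% exact Poisson interval 10557 to 10618), 17294 CPM at puberty and 19934 CPM in adult cells. Single cells ran from 3868 through a median of 8916 to 23231 CPM before puberty, from 2114 through 18188 to 32463 CPM at puberty, and from 2169 through 20732 to 30519 CPM in adult cells. The summed log2 ratio was -0.71 for pre-pubertal over pubertal cells and -0.91 for pre-pubertal over adult cells. Since mitochondrial reads enter the totals, the nuclear genes were also scaled to nuclear reads alone, which gave 11054, 19503 and 22724 CPM. The number of mitochondrial reads per nuclear member read was 3.05 before puberty, 5.75 at puberty and 5.46 in adult cells, and the median cell had 2.82, 4.74 and 3.98. Reads on the 2 mitochondrial ribosomal RNAs, which are not protein-coding, took 0.990%, 1.38% and 1.39%.

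**Figure D1:**
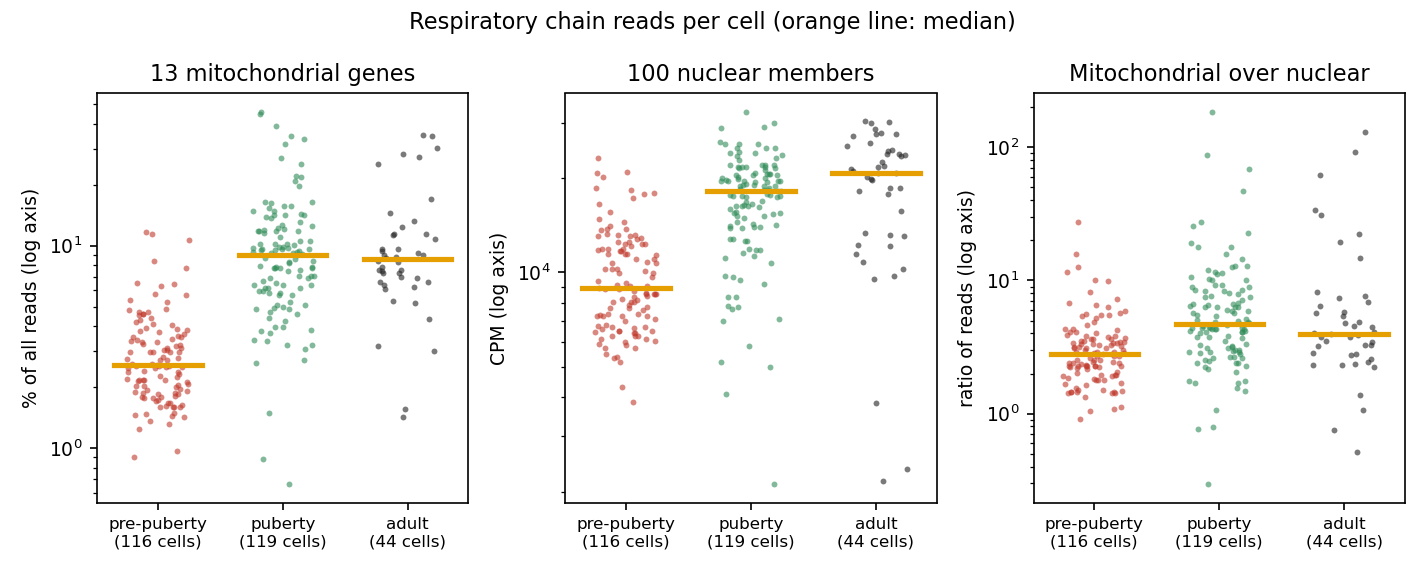
Each point is 1 kept cell, with the stage on the x axis and, on log axes, the percent of reads on the 13 mitochondrial genes (left), the CPM of the 100 nuclear genes (middle) and their ratio (right), and orange lines mark medians. The pre-pubertal medians of 2.56% and 8916 CPM lie below those at puberty (9.01% and 18188 CPM) and in adult cells (8.55% and 20732 CPM), while pubertal and adult cells overlap broadly.

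The difference was present within subsets of the pre-pubertal cells. The 12 kept cells numbered 1 to 37, which were more deeply sequenced (median 1008310 reads), held 3.98% mitochondrial reads and 12663 CPM of nuclear members, and the 104 numbered 38 to 144 held 2.97% and 9857 CPM. The 10 pre-pubertal cells with Krt14 alone above 40 RPKM (reads per 1000 bases and 1000000 reads) held 4.58%, the 2 with Krt8 or Krt18 alone held 3.73%, the 7 with Krt14 together with Krt8 or Krt18 held 3.18%, and the 97 with no keratin above 40 RPKM held 3.04%. These cells also carried Schwann markers, at 5765, 4117, 7200 and 11261 CPM. The basal markers were at 9783, 33.0, 11084 and 297 CPM in the same order. When only the keratin-positive cells of each stage were kept (19, 109 and 40 cells), the log2 ratios for pre-pubertal over pubertal cells were -1.30 for the mitochondrial share and -0.61 for the nuclear level. Of these cells 17, 29 and 18 were above 40 RPKM for Krt14, and 9, 104 and 35 for Krt8 or Krt18. Their mix of keratins thus differed between the stages.

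Every one of the 13 mitochondrial genes was lower before puberty than at puberty, and all 13 were lower than in adult cells. For single genes, the log2 ratio was computed after adding 5 CPM to both stages, and a ratio past 1 in either direction was counted. For pre-pubertal over pubertal cells 11 of 13 were below -1 with a median of -1.57, where 21.3% of the 9829 genes compared were below -1, 23.4% were above 1, and their median was 0.00. For pre-pubertal over adult cells 13 of 13 were below -1 with a median of -1.96, against 26.4% of 9770 genes. The 3 most abundant were mt-Cytb, the complex III subunit that holds the haem groups of the ubiquinone sites, mt-Co1, the catalytic subunit of complex IV, and mt-Nd1, a membrane subunit of complex I. Of the mitochondrial reads mt-Cytb took 30.8%, 34.2% and 37.6% at the 3 stages in order of age, mt-Co1 took 26.3%, 30.1% and 18.3%, and mt-Nd1 took 24.7%, 18.2% and 24.0%.

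With 5 CPM added, the 3 complex IV genes had the lowest ratios of the mitochondrial genes between pre-pubertal and pubertal cells. mt-Co3 was at 776 RPKM before puberty, 5117 RPKM at puberty and 6044 RPKM in adult cells, a log2 ratio of -2.71 for pre-pubertal over pubertal cells. In single cells mt-Co3 ran from 154.1 through a median of 476 to 3039 CPM before puberty and from 234 through 2911 to 26508 CPM at puberty. mt-Co2, which receives the electrons from cytochrome c, stood at 545, 2304 and 3382 RPKM (log2 ratio -2.07), and mt-Co1 at 5492, 19369 and 12932 RPKM (-1.82). mt-Cytb was at 8709, 29715 and 35833 RPKM (-1.77).

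The complex I genes were spread more widely. mt-Nd2 was closest between pre-puberty and puberty, at 1262 and 1985 RPKM (log2 ratio -0.65), and was at 3381 RPKM in adult cells. With 5 CPM added, mt-Nd5 (-1.61), mt-Nd4l (-1.62), mt-Nd3 (-1.35), mt-Nd4 (-1.33) and mt-Nd1 (-1.18) lay between it and the complex IV genes. mt-Nd4l was the scarcest, with 0.0294% of the mitochondrial reads before puberty and 0.0398% at puberty. The added CPM draws its ratio towards 0, and its rank against mt-Co1 depends on that addition. mt-Nd6 (-0.99), the one protein-coding gene of the other strand, stood at 492, 984 and 1024 RPKM. The complex V genes mt-Atp6, part of the proton channel, and mt-Atp8 had ratios of -1.57 and -1.21. In the annotation mt-Atp8 shares positions 7927 to 7969 of the mitochondrial genome with mt-Atp6, mt-Nd4l shares 10167 to 10173 with mt-Nd4, and mt-Nd5 shares 13552 to 13565 with mt-Nd6, and how reads over these stretches were assigned is not stated.

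**Figure D2:**
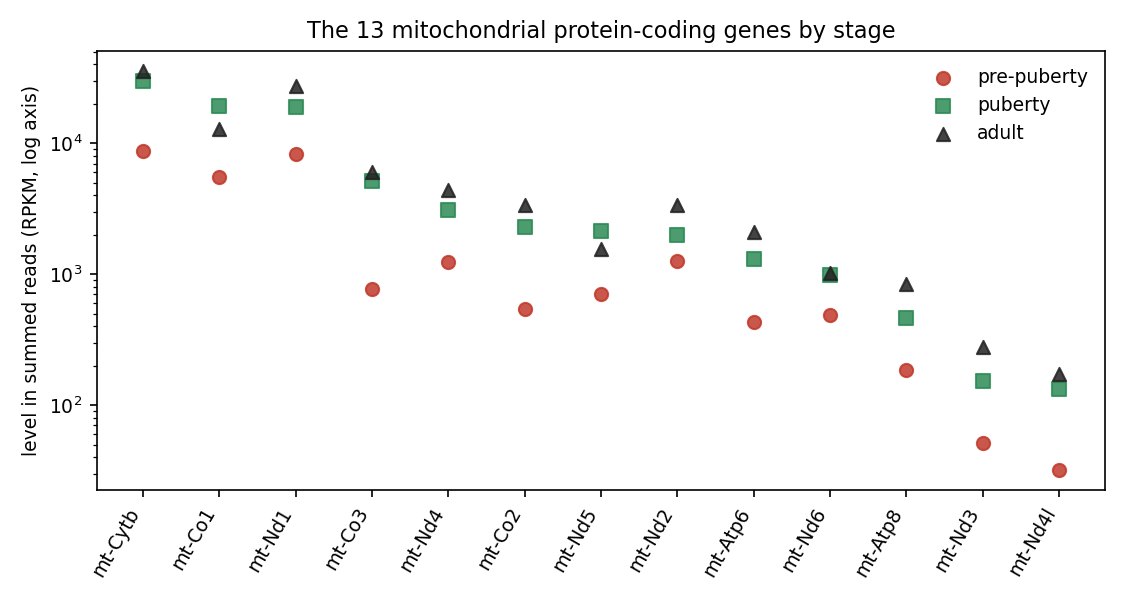
Levels of the 13 mitochondrial genes (x axis, ordered by pubertal level) in the summed reads of each stage, in RPKM on a log axis, with 1 symbol per stage. The pre-pubertal circle is lowest for all 13 genes, and mt-Co1 and mt-Nd5 are the genes with the pubertal square above the adult triangle.

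Puberty and adulthood were much closer for this genome. None of the 13 genes was past 1 in either direction for pubertal over adult cells, where 27.4% of all genes were above 1 and 20.0% below -1. The median of the 13 was -0.51, below the 0.08 of all genes. mt-Co1 (log2 ratio 0.58) and mt-Nd5 (0.47) were higher at puberty, and the other 11 were higher in adult cells, mt-Atp8 (-0.84), mt-Nd3 (-0.81) and mt-Nd2 (-0.77) most. The median cell gave mt-Co1 28.4% of its mitochondrial reads at puberty (quartiles 22.4 to 34.3) and 16.5% in adult cells (11.5 to 20.6).

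Of the 100 nuclear genes 82 reached 10 CPM at any stage. For pre-pubertal over pubertal cells 81 were compared, of which 71 were below 0, 18 were below -1 and none was above 1, with a median of -0.63. The 22.2% below -1 is near the 21.3% of all genes compared, but this share moved with the processing. It was 40.2% (33 of 82) against 23.85% of all genes when only cells with 200000 to 600000 reads were used, 35.4% (29 of 82) against 24.3% with totals without mitochondrial and ribosomal protein genes, 13.6% (11 of 81) against 17.0% with 10 CPM added, and 22.9% (19 of 83) against 31.6% in keratin-positive cells. For pre-pubertal over adult cells 38 of 81 were below -1 and 2 were above 1, with a median of -0.93, against 26.4% and 33.3% of all genes and a median of 0.14. For pubertal over adult cells 3 of 82 were below -1 and 3 above 1, with a median of -0.24, against 20% and 27.4%.

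Gene length moved with these ratios. Most nuclear subunits are short genes, and the log2 ratio of all genes for pre-pubertal over pubertal cells had a median of -0.89 below 500 bases, -0.60 from 500 to under 1000 bases, -0.22 from 1000 to under 2000 bases and 0.18 from 2000 bases. The nuclear members had medians of -0.87 (17 genes), -0.69 (38 genes), -0.42 (20 genes) and -0.77 (6 genes) in the same classes. Below 1000 bases the members thus had a median like that of other genes of their length. Cytosolic ribosomal protein genes, also short, had a median of -1.02, and their share of the reads was 0.703%, 1.49% and 1.98% at the 3 stages. The part of gene length in the stage differences was not tested.

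**Figure D3:**
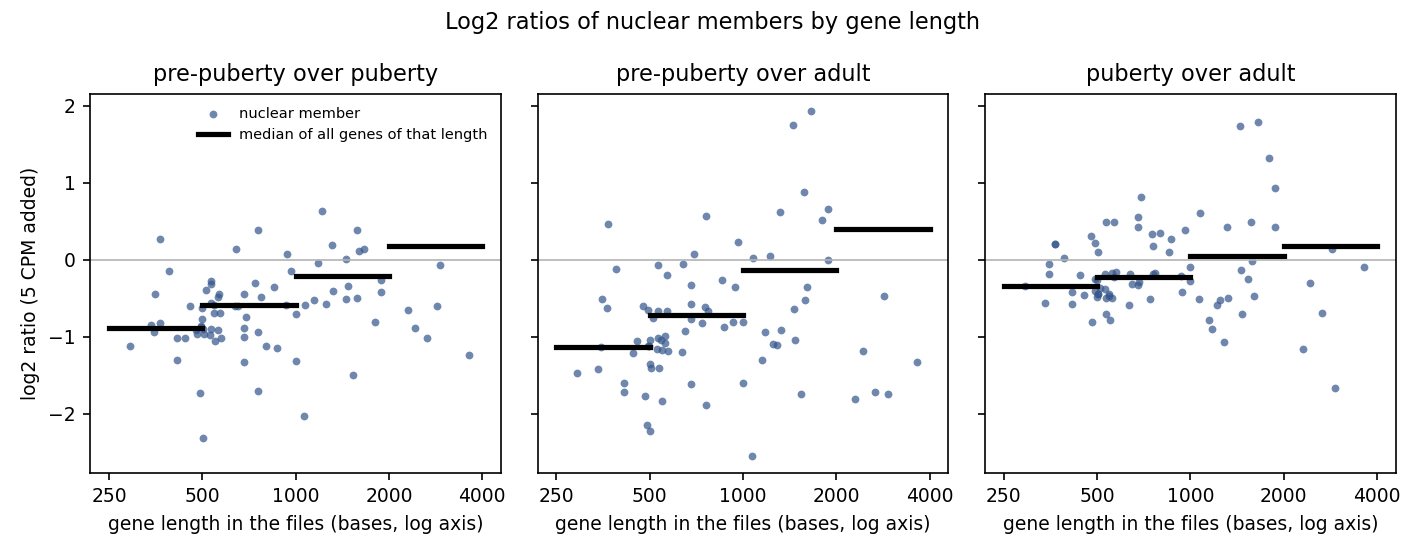
Each blue point is a nuclear member, with gene length in bases on a log x axis and the log2 ratio of the stage pair on the y axis, and black bars give the median of all genes compared in each length class. For pre-pubertal over pubertal cells the black bars climb from -0.89 to 0.18 with length, and the members below 1000 bases scatter around them.

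Complex I, the NADH dehydrogenase, had 41 nuclear members with a sum of 3902 CPM before puberty, 5795 CPM at puberty and 7467 CPM in adult cells. Of 37 compared between pre-puberty and puberty 6 were below -1 and none above 1, with a median of -0.56. The 16.2% below -1 was under the 21.3% of all genes and the 32.9% of genes under 1000 bases. Ndufa1 and Ndufa3, small accessory subunits, had the highest level per length in complex I over all kept cells together, at 326, 601 and 718 RPKM for Ndufa1 and 303, 595 and 679 RPKM for Ndufa3. In single cells Ndufa1 had a median of 73.25 CPM before puberty (highest 927), 240 CPM at puberty (highest 1914) and 157.5 CPM in adult cells (highest 1244), and was at 0 in the lowest cell of each stage. The lowest complex I ratio was that of Ndufs4, an accessory subunit named after its values were seen, with 125.5, 363.5 and 433 CPM (-1.50).

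The highest ratios of all nuclear members above 50 CPM also came from complex I. Ndufa10 was at 142 CPM before puberty, 89.5 CPM at puberty and 137 CPM in adult cells (log2 ratio 0.64 for pre-pubertal over pubertal cells), but its median cell had 0, 4.59 and 0 CPM, and 1 cell held 26.3% of its pre-pubertal reads, without which it was at 107 CPM, and with the keratin-positive cells alone its ratio was -0.49. Ndufs7 (0.39) and Ndufv1 (0.39, and -0.44 in the keratin-positive cells), which carry an iron-sulfur cluster and the NADH site, followed. Both belong to the 7 nuclear core subunits that are conserved from bacteria. Those 7 had a median ratio of 0.07, with 4 above 0, and the 28 other structural subunits compared had a median of -0.61, a split made after the values were seen. The core genes are longer, with a median of 1472 bases against 601 bases.

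Complex II, succinate dehydrogenase, is the complex without mitochondrial genes. Its 4 genes summed to 412, 577 and 549 CPM. Sdhb, the iron-sulfur subunit, was at 214, 324 and 211 RPKM (log2 ratio -0.59 for pre-pubertal over pubertal cells and 0.02 for pre-pubertal over adult cells). Sdhc, a membrane anchor, was at 80.1, 82.6 and 157.8 RPKM (-0.04 and -0.94). Sdhd, the other anchor, named after its values were seen, was scarce at 8.935, 9.26 and 25.1 CPM, and was below -1 for pubertal over adult cells (-1.08).

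Complex III had 9 nuclear members with sums of 1041, 1650 and 1622 CPM. Uqcrb, a small subunit near the ubiquinone site, was the lowest of all nuclear members for pre-pubertal over pubertal cells, with 54.9, 295 and 274.5 CPM (log2 ratio -2.32, and -2.22 against the adult). Its median cell had 39.8, 227 and 237 CPM, and the highest pre-pubertal cell reached 215 CPM, below the pubertal median. With the keratin-positive cells alone its ratio to puberty was -1.81. The core proteins went the other way in adult cells. Uqcrc1 was at 192, 174 and 46.6 CPM, a ratio of 1.93 for pre-pubertal over adult cells and 1.79 for pubertal over adult cells, although the median cell had 3.98, 10.6 and 0 CPM and 1 cell held 50.2% of the adult reads, without which the adult level was 23.5 CPM. Uqcrc2 was at 213, 257 and 132.5 CPM (0.66 before puberty and 0.93 at puberty, against the adult), with 46.5% of the adult reads in 1 cell, and with the keratin-positive cells alone the first of these was -0.43. Uqcrh, the hinge protein whose promoter letters are printed above, was at 382, 623 and 869 RPKM and Uqcr10 at 312, 642 and 737 RPKM.

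Complex IV, cytochrome c oxidase, had 20 nuclear members, Ndufa4 included, with sums of 2306, 3867 and 5143 CPM. For pre-pubertal over pubertal cells 2 of 12 compared (16.7%) were below -1, against 21.3% of all genes, with a median of -0.72. Ndufa4, first taken for a complex I subunit and now counted with complex IV, was the lowest, with 179, 605 and 807 CPM (log2 ratio -1.73, and -2.15 against the adult). Its median cell had 123, 568.3 and 611 CPM, so the medians differed as the sums did. Cox6a1 was at 1058, 1315 and 2146 RPKM and Cox4i1 at 1028, 1402 and 1760 RPKM, the pair with the highest level per length of all nuclear members at each stage. Cox4i1 had a ratio of -0.44 and reads in 99.1%, 98.3% and 93.2% of cells thinned to 100000 reads.

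Complex V, the ATP synthase, had 18 nuclear members with sums of 2817, 5172 and 4880 CPM. All 16 compared were below 0 for pre-pubertal over pubertal cells, and 6 were below -1, with a median of -0.87. The share below -1 was 37.5%, against 21.3% of all genes and 32.9% of genes under 1000 bases. Atp5j, a stalk subunit, was at 302, 998.7 and 1136 RPKM (log2 ratio -1.70 to puberty and -1.89 to the adult), and its median cell had 121, 622 and 759 CPM. Atp5g3, one of 3 genes for the ring subunit, was at 459, 926 and 688 RPKM (-1.001 and -0.58). Atp5c1, the central stalk, was one of the 3 members above 1 between the later stages, with 444, 780 and 310 CPM (1.32 for pubertal over adult cells) and median cells of 195.5, 520 and 71.4 CPM.

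The assembly factors were scarce, with sums of 109, 233 and 274 CPM over 8 genes. Ndufaf3 was the second lowest member, with 10.1, 56.7 and 83.3 CPM (log2 ratio -2.03 to puberty and -2.55 to the adult). Its median cell was at 0 at each stage, and 47.4% of the adult reads came from 1 cell, without which the adult level was 45.3 CPM. Ndufaf7, a methyltransferase, was at 21.3, 36.3 and 87.5 CPM (-1.16 for pubertal over adult cells), but 99.8% of the adult reads came from 1 cell, without which it was at 0.141 CPM. Ndufaf1 (1.75 for pre-pubertal over adult cells) had 13.3, 13.2 and 0.452 CPM and was named after its values were seen. Ndufs1, the largest core subunit of complex I, was lowest for pubertal over adult cells (-1.67), with 67.6, 71.1 and 238 CPM, where 1 cell held 36.9% of the adult reads and the level without it was 152.3 CPM.

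**Figure D4:**
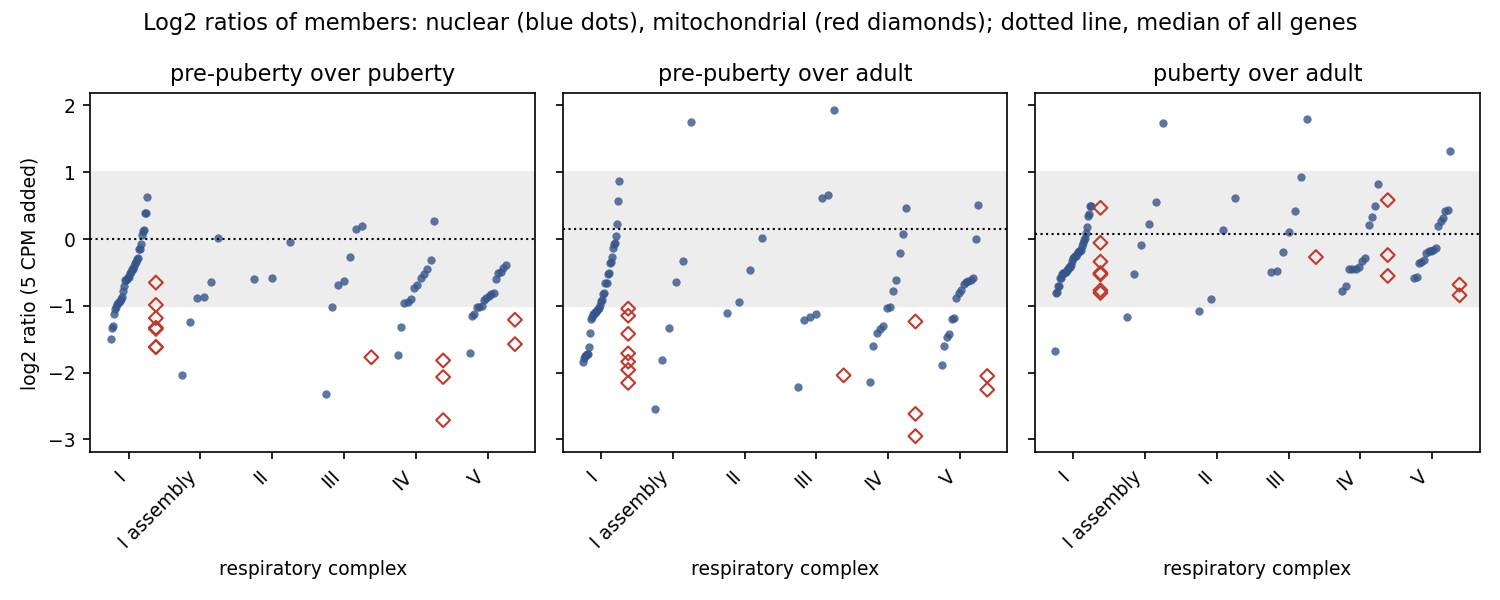
Log2 ratios (y axis, 5 CPM added) of each member by complex (x axis) for the 3 stage pairs, nuclear members as blue dots and mitochondrial genes as red diamonds, with the grey band from -1 to 1 and a dotted line at the median of all genes. In the left and middle panels most points lie below the dotted line and the diamonds have medians of -1.57 and -1.96, though a few nuclear members such as Uqcrb (-2.32 and -2.22) lie below most diamonds, and in the right panel most lie within the band.

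Several complex IV subunits exist as a widely expressed form and a form of heart, muscle, lung or testis, and the widely expressed form prevailed. Cox4i1 had 698, 952 and 1195 CPM against 3.69, 4.14 and 1.265 CPM for Cox4i2, the lung form. Cox6a1 had 564, 701 and 1144 CPM, and Cox6a2, a muscle form, had reads in 1 pubertal cell alone. Cox8a had 164, 248 and 341 CPM against at most 0.2125 CPM for Cox8b, and Cox8c had no read, which allows up to 0.0693, 0.0375 and 0.136 CPM. Cox6b1 had 158.4, 314 and 429.5 CPM against 7.09, 6.96 and 7.005 CPM for Cox6b2. Ndufa4l2 was at 4.64, 7.09 and 4.38 CPM. Cox7a1, the muscle form, was nearest to its partner, at 40.6, 31.5 and 25.6 RPKM against 44.5, 91.7 and 71.4 RPKM for Cox7a2, yet its median cell was at 0 at each stage and 96.1% of its adult reads lay in 1 cell.

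Low values in some members are uncertain, since near-identical copies can share reads and the treatment of such reads is not stated. In all 18 nuclear genes stayed below 10 CPM at every stage, 15 of them protein-coding. They included common subunits such as Ndufs5, Ndufb4, Cox7c and Uqcr11. Ndufs5 was at 2.01, 3.66 and 4.25 CPM, while its pseudogene Ndufs5-ps was at 56.3, 100.1 and 122 CPM. Uqcr11 had 0.0231, 0.0375 and 0 CPM.

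Cells with Krt14 were then compared with cells with Krt8 or Krt18 within a stage, each keratin counted above 40 RPKM and cells with both left out. This gave 10 cells with Krt14 and 2 with Krt8 or Krt18 before puberty, 5 and 80 at puberty, and 5 and 22 in adult cells. A further 7, 24 and 13 cells had both, and 97, 10 and 4 had neither. Cells with a keratin from 20 to 80 RPKM, near the threshold, numbered 9, 21 and 12. The classes are ranges of keratin level and not cell types, and 5 cells of pooled mice set the Krt14 values.

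At puberty the Krt14 cells held 9.74% mitochondrial reads (lowest 3.701, median 8.43, highest 15.7) and the Krt8 or Krt18 cells 11.0% (3.22, 9.45 and 45.6). The nuclear genes were at 15737 CPM (13913, 15345 and 21729) against 17611 CPM (2114, 18636 and 32463). The 5 Krt14 cells lay inside the range of the 80 others for both measures. In the adult the Krt14 cells held 13.5% (3.02, 6.90 and 27.2) and the Krt8 or Krt18 cells 9.43% (3.18, 8.55 and 28.2), but 59.9% of the Krt14 mitochondrial reads came from adult cell 27. Without that cell the Krt14 share was 7.73%, below that of the Krt8 or Krt18 cells, and the medians were also in that order. The nuclear genes were at 19133 CPM (12128, 20219 and 25367) against 22676 CPM (2169, 23846 and 30519). The direction of the adult difference in the mitochondrial share thus rested on 1 cell, while without the cell with the most respiratory chain reads in each class the nuclear genes were at 22099 against 22505 CPM.

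At puberty and in the adult, a smaller share of the nuclear members than of all genes was past 1 in either direction between keratin classes. At puberty, Krt14 over Krt8 or Krt18, 4 of 82 were above 1 and 17 below -1, against 21.4% and 49.5% of all genes, with a median of -0.23 against -0.95. In the adult 6 of 82 were above 1 and 34 below -1, against 23.5% and 58%, with a median of -0.67 against -1.66. At a minimum of 50 CPM instead of 10 CPM, the medians were -0.20 against 0.03 at puberty and -0.47 against -1.12 in the adult. The order of the pubertal medians thus depended on that minimum. Before puberty, where the second class held 2 cells, 45 of 78 were above 1 and 8 below -1, against 58.1% and 22.8%, so the share above 1 was close to that of all genes.

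**Figure D5:**
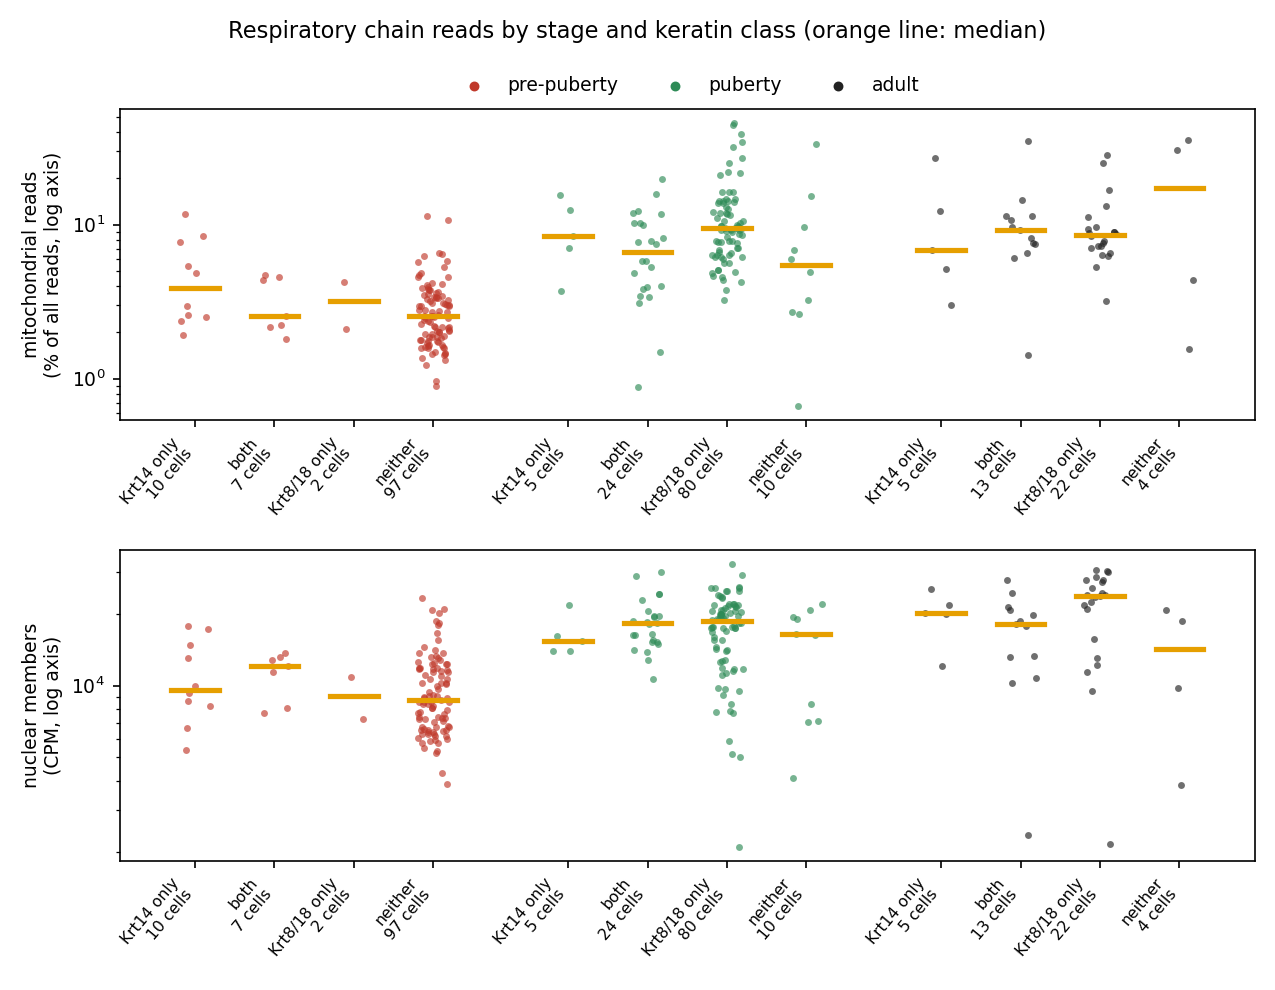
Each point is 1 kept cell, by stage (colour) and keratin class (x axis, with the number of cells), with the percent of mitochondrial reads (top) and the CPM of the nuclear members (bottom) on log axes and medians as orange lines. The pre-pubertal classes have medians of 2.54% to 3.91% mitochondrial reads, and within puberty and adulthood the keratin classes overlap.

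The genes furthest apart between keratin classes rested on few cells. At puberty Sdhb had 636 CPM in the Krt14 cells (lowest 17.3, median 630, highest 1017) and 248 CPM in the Krt8 or Krt18 cells (0, 46.8 and 1587), a log2 ratio of 1.34. Ndufaf4 was at 95.1 against 33.6 CPM (1.37), with medians of 18.6 and 0 CPM, and Ndufs1 at 144 against 60.0 CPM (1.20), but all of its Krt14 reads came from 1 cell. Uqcrfs1, the Rieske iron-sulfur protein of complex III, had no read in the 5 Krt14 cells and 112 CPM in the others, at least 178-fold lower against a floor of 3 reads over the group. Sdhc had 2 reads against 78.2 CPM, a ratio of 187 with a counting interval of 51.6 to 1542. Ndufaf2 was at 0.838 against 81.5 CPM, with medians of 0 in both classes. In the adult Atp5b, the catalytic subunit of complex V, was at 913 against 261 CPM (1.79). Without the cell with most of its reads in each class it was at 223 against 207 CPM. Atp5o was at 1125 against 391.97 CPM (1.51), with reads in 3 of the 5 Krt14 cells and 58.6% of them in 1 cell. Without the top cell of each class Atp5o was at 612 against 353 CPM. Uqcrc1 was at 129 against 47.4 CPM (1.36), where 1 cell held 83.0% of the Krt14 reads and 1 cell 94.0% of the others. Ndufa9 was at 6.79 against 333 CPM (-4.84) with a median of 0 in both classes, Ndufs1 at 3.59 against 223 CPM (-4.73), and Ndufaf7 had no read against 167 CPM, at least 139-fold lower. That bound rests on 1 cell with 99.8% of the Krt8 or Krt18 reads, without which the class had 3 reads and no fold can be given. Sdhc and Ndufs1 at puberty and Ndufs1 and Uqcrc1 in adult cells changed sign when cells with both keratins were counted as Krt14 cells. Within classes, pubertal over adult cells gave -0.47 for the mitochondrial sums and -0.28 for the nuclear sums in the Krt14 cells. The sign of the mitochondrial value rested on adult cell 27, without which the adult share was 7.73%, against 9.74% at puberty. Without the top pubertal cell as well, the pubertal share was 8.24%. In the Krt14 cells 26 of 77 nuclear members were above 1 and 21 below -1, against 50% and 31% of all genes. In the Krt8 or Krt18 cells the sums gave 0.23 and -0.36, with 7 of 83 above 1 and 10 below -1, against 35.6% and 22.6%.

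Other genes of mitochondrial metabolism were read from lists in the same way. For pre-pubertal over pubertal cells, where 23.4% of all genes were above 1 and 21.3% below -1, 1 of 17 tricarboxylic acid cycle genes compared was above 1 and 3 were below -1 (median -0.27), and of 21 glycolysis and lactate genes 2 were above and 9 below (-0.77). For the 75 genes of the mitochondrial ribosome the counts were 0 and 14 (-0.53), for 22 genes of cytochrome c and of assembly 2 and 6 (-0.43), for 17 genes of mitochondrial genome expression 1 and 5 (0.01), for 9 regulators 2 and 3 (-0.39), and for 16 genes of oxidant defence and uncoupling 1 and 4 (-0.45). Apart from the genome expression list, the medians of these lists lay below 0, with glycolysis lowest. For pre-pubertal over adult cells the tricarboxylic acid cycle had a median of 0.49 and glycolysis of -0.30, and for pubertal over adult cells 0.24 and 0.38.

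Single genes of these lists ran both ways. The copper chaperone of complex IV, Cox17, was at 46.3, 135 and 147.3 CPM (log2 ratio -1.45 for pre-pubertal over pubertal cells), and the helicase of mitochondrial DNA, Twnk, was at 8.89, 50.55 and 49.5 CPM, with 55.1% of the pubertal reads and 84.75% of the adult reads in 1 cell each. Ssbp1, which coats single-stranded mitochondrial DNA, was at 30.3, 96.2 and 46.7 CPM. Gpx1, a glutathione peroxidase, was at 402, 1360 and 976 CPM (-1.75), with median cells at 83.9, 1118 and 280 CPM. Catalase (Cat) was higher before puberty, at 269, 59.0 and 48.0 CPM (2.10), and so were Dlat, a subunit of pyruvate dehydrogenase (118, 24.1 and 51.4 CPM), and Myc (244, 79.2 and 100 CPM). Hif1a was at 55.0, 144.6 and 228 CPM. Aldoc and Eno1 of glycolysis were at 3.86, 105 and 82.4 CPM and at 7.48, 54.4 and 21.9 CPM. Fh1, fumarase, was at 42.4, 206 and 19.2 CPM. Sdhaf4, an assembly factor of complex II, was at 30.5, 74.3 and 62.9 CPM, and the mitochondrial ribosomal genes Mrpl1 and Mrps7 were at 24.9, 88.8 and 50.7 CPM and at 18.1, 55.9 and 99.9 CPM.

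Within a stage, the mitochondrial and the nuclear parts did not go together closely over cells. Spearman's rho between the mitochondrial share and the nuclear members, as CPM of nuclear reads, was 0.27 over 116 pre-pubertal cells, -0.07 over 119 pubertal cells and -0.33 over 44 adult cells, given as a description of cells that share sorts and chips. The nuclear members went with the cytosolic ribosomal protein genes more closely, with rho of 0.65, 0.46 and 0.45. The mitochondrial share went with the number of reads in a cell at -0.00, -0.06 and -0.05.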

How the data were processed

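Read counts per gene and cell were used as deposited. Per the labels and the study's methods, the authors aligned read pairs to mm10 with Subread 1.4.6 and counted them with featureCounts over RefSeq genes. No molecular identifiers were used, so counts are of reads. The treatment of reads shared by several genes is not given in the sources used here. Entrez identifiers were matched to RefSeq GRCm38.p6 symbols (25275 of 27179; the others held 1.41% of reads), and no 2 cells held identical values.

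Cells were kept with at least 100000 reads and 1500 genes detected, after leaving out mitochondrial, ribosomal protein and unannotated genes for that filter only, as in the study. Reads were summed over the cells of a group and divided by totals over all genes to give CPM, or also by the deposited gene length to give RPKM. Log2 ratios had 5 CPM added and were taken for genes at 10 CPM or more in either group. Detection was compared after thinning each cell to 100000 reads. With 1 sample per stage, no test was made, and 95% exact intervals cover counting error only. The log2 ratios of summed reads were tested on simulated cells for pre-puberty over puberty only. The keratin classes, with few cells each, were not simulated.

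The members and gene lists were chosen with earlier results of these data known. Named were all 13 mitochondrial genes, per complex the 2 nuclear members highest in RPKM, per contrast the 3 most extreme each way at 50 CPM or more, isoform pairs, and 2 genes per pathway list. Alternatives changed the cell filter, weighting, depth window, totals, scaling (edgeR 4.0.16, DESeq2 1.42.0), added CPM, minimum CPM and keratin threshold. A copy of the counts in 1 combined deposited table was not used. Python 3.11.15, numpy 2.4.6, pandas 2.3.3, scipy 1.17.1 and R 4.3.3 were used.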

Additional observations from a re-analysis of the deposited data

Results flagged for a closer look

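The 67 cells below the coverage filter entered no comparison. Their mitochondrial genes held 16.8% of the reads at pre-puberty (28 cells), 50.4% at puberty (17 cells) and 61.1% in the adult (22 cells), against 3.23%, 9.95% and 10.9% in the kept cells. Before puberty 1 cell held 65.8% of these mitochondrial reads, without which the share was 7.44%, and the median cell was at 4.00%, 45.0% and 54.4% at the 3 stages. The 2 mitochondrial ribosomal RNAs, which are outside the members, held 0.990%, 1.38% and 1.39% of the reads of kept cells at the 3 stages.

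In groups of 4 to 10 cells, a cell far from the nearest other one was looked for in 18 combinations of group and measure. The rule marks about 1 in 20 by chance only where values are independent and normally distributed. The measures are not independent, since the ratio is made from the others, and normality was not tested. Adult cell 27, with Krt14 alone, had 22.5 mitochondrial reads per nuclear member read. A pubertal Krt14 cell had 21729 CPM of nuclear members. Among the 10 pubertal cells with no keratin above 40 RPKM, 1 cell had 33.6% mitochondrial reads and, in the same cell, 47.4 mitochondrial reads per nuclear member read. What sets these cells apart was not tested.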

How the results depend on the processing

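No paired analysis was possible because the cell numbers only name cells, and with 1 sample per stage no test was made. Each value is a log2 ratio, given in the order mitochondrial share, nuclear level and their ratio, first for pre-pubertal over pubertal cells, then pre-pubertal over adult, then pubertal over adult. Leaving out single replicates does not apply, and a threshold of any keratin read gave no value, since a class then held no cell. Of the counts past 1, 143 stayed within 1.5 times and 19 did not, 102 summed values moved by more than their counting error and 5 did not, and of the ratios of named genes 176 moved, 6 changed sign from past 1 and 214 did neither. Counting error is small at this depth, and the cause of the changes listed here was not tested.

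With no filter on cells the stage values were -1.66, -0.70 and -0.96, then -2.03, -0.83 and -1.20, then -0.37, -0.13 and -0.24. A filter of 200000 reads and 2000 genes gave -1.59, -0.68 and -0.91, then -1.79, -0.90 and -0.89, then -0.20, -0.22 and 0.019. Equal weight for each cell gave -1.76, -0.79 and -0.96, then -1.82, -0.95 and -0.87, then -0.064, -0.15 and 0.089. Cells with 200000 to 600000 reads gave -1.96, -0.80 and -1.17, then -1.91, -0.90 and -1.01, then 0.049, -0.11 and 0.15. Without the cell with the most respiratory chain reads in each group the values were -1.65, -0.73 and -0.93, then -1.71, -0.95 and -0.76, then -0.053, -0.22 and 0.17. Pre-pubertal cells numbered 38 and above gave -1.75, -0.81 and -0.93, then -1.88, -1.02 and -0.86. Keratin-positive cells alone, an alternative chosen after seeing the data, gave -1.30, -0.61 and -0.68, then -1.33, -0.83 and -0.50, then -0.033, -0.22 and 0.18. The signs of the differences from pre-pubertal cells were thus the same in these alternatives, while the mitochondrial share and the ratio of pubertal over adult cells were not. The nuclear level was -0.82, -1.04 and -0.22 for the 3 stage pairs with totals over nuclear genes, -0.83, -1.06 and -0.23 with totals without mitochondrial and ribosomal protein genes, and -0.70 and -0.91 for the first 2 pairs with structural subunits only.

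The window of 200000 to 600000 reads gave 1 nuclear member above 1 and 33 below -1 for pre-pubertal over pubertal cells. Of all genes 30.0% were above and 23.85% below there. For pre-pubertal over adult cells 7 members were above, against 39.6% of all genes. For pubertal over adult cells 8 were above and 7 below, against 34.3% and 25.05%. Keratin-positive cells gave 2 and 5 above for the first 2 pairs, against 24.5% and 31.5% of all genes. For pre-pubertal over pubertal cells 29 were below -1 with totals without mitochondrial and ribosomal protein genes, against 24.3% of all genes. With 10 CPM added 11 were below, against 17.0%. Structural subunits and a minimum of 50 CPM each gave 1 above for pre-pubertal over adult cells, against 33.3% and 29.0% of all genes. DESeq2 size factors gave 5 below for pubertal over adult cells, against 24.5%.

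For Krt14 cells over Krt8 or Krt18 cells, the mitochondrial share and the nuclear level at puberty, then in the adult, were -0.30 and -0.15, then 0.026 and -0.16 with no filter on cells. They were -0.33 and -0.11, then 0.11 and -0.12 with equal weights, -2.05 and 0.40, then -0.53 and 0.28 in the window of reads, where the Krt14 class held 1 cell at puberty and 4 in the adult, and -0.38 and -0.13, then -0.23 and -0.026 without the top cell. With keratins above 100 RPKM they were -0.24 and -0.055, then 0.33 and -0.27, and with both keratins in the Krt14 class -0.51 and -0.010, then 0.30 and -0.37. With both keratins in the other class the share was -0.062 at puberty, then 0.44 with a nuclear level of -0.11 in the adult. The stricter filter gave a share of -0.11 at puberty, then 0.69 with a nuclear level of -0.29. The nuclear level was -0.19 and -0.16 with totals over nuclear genes and -0.18 and -0.16 without mitochondrial and ribosomal protein genes. Counts at puberty were 21 above and 35 below in the window, for that 1 cell and against 15.4% and 74.7% of all genes. They were 7 above with DESeq2 size factors, against 24.5%, and 11 below at a minimum of 50 CPM, against 33.4%. With both keratins in the Krt14 class 4 were below, against 23.3%. In the adult 18 were above in the window, against 27.6% of all genes, and 11 with DESeq2 size factors, against 27.3%.

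Among named genes past 1, those that changed sign were Ndufaf7 in the window, at 2.80 for pubertal over adult cells, and Ndufs1 in the window, at -4.40 between keratin classes at puberty with 1 Krt14 cell. With both keratins in the Krt14 class, Ndufs1 was at -0.034 and Sdhc at 0.91 at puberty, and Uqcrc1 at -0.095 and Ndufs1 at 0.40 in the adult. Among those within 1, the ratio of pre-pubertal over pubertal cells changed sign for Ndufs7 (-0.042) and Ndufv1 (-0.13) in the window, for Ndufv1 (-0.058) with cells 38 and above, and for Ndufa10 (-0.49) and Ndufv1 (-0.44) in keratin-positive cells, as did that over adult cells for Uqcrc2 (-0.43) in keratin-positive cells.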
